A study of Mus musculus with 10 samples.

Results

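Small non-coding RNA genes were examined for a histone mark and for elongating RNA polymerase in cultured MuSCs, the stem cells of mouse skeletal muscle, also called satellite cells. The deposited tables hold 1 set of peaks for each antibody and list every peak with at most 1 gene. All autosomal genes whose listed type was snRNA, snoRNA, scaRNA, rRNA, miRNA, misc_RNA or scRNA were taken, and the scores of all peaks listed with a gene identifier were summed. The table for histone H4 monomethylated at lysine 20 (H4K20me1) held 139 such genes among 13763 autosomal genes, made up of 42 snRNA, 41 snoRNA, 15 rRNA, 25 miRNA and 16 misc_RNA genes. The table for elongating RNA polymerase II, whose C-terminal domain is phosphorylated at serine 2 (Pol II S2P), held 41 among 11037, made up of 17 snRNA, 6 snoRNA, 1 scaRNA, 2 rRNA, 10 miRNA and 5 misc_RNA genes. No scRNA gene was listed in either table. Together the tables held 175 small RNA genes of 17386 autosomal genes, and 5 were listed with a peak of both antibodies, namely Mir29a, the rRNA gene Gm24931, the U2 gene Gm25939, the U5 gene Gm23287 and the misc_RNA gene Gm27668.

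Libraries were made by CUT&RUN, in which micrococcal nuclease, tethered to an antibody in permeabilised cells, releases the DNA at the target for sequencing. The genotypes were Pax7CreERT/Suv4-20h1WT (Ctrl) and Pax7CreERT/Suv4-20h1KO (sKO), with 2 libraries each per antibody. Suv4-20h1, now named Kmt5b, is an enzyme that adds further methyl groups to H4K20me1, and both genotypes carry CreERT, a tamoxifen-activated Cre under control of Pax7, a gene of satellite cells. Cells of limb and trunk muscle were purified with magnetic beads and grown in culture. Tamoxifen was given to adult mice. The labels do not say which animals gave which library, so the p-values below measure the spread between these libraries, which may be technical.

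Small RNA genes differ in how they are transcribed. The spliceosomal U1, U2, U4 and U5 snRNAs are made by Pol II from promoters with a distal enhancer that often holds an octamer bound by Oct-1 and a proximal element bound by SNAPc, while U6, 7SK, the 7S RNA of the signal recognition particle and 5S rRNA are made by Pol III. Their transcripts are not spliced, and the Integrator complex cuts Pol II snRNAs near a box just past the gene. Most snoRNAs, which guide the modification of rRNA, and scaRNAs, which do so for snRNAs, are cut out of introns of host genes, and miRNAs, which repress mRNAs, are processed from longer Pol II transcripts. H4K20me1 is laid down by Kmt5a and is found over the bodies of transcribed genes and on the inactive X chromosome.

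The first 60 bases of a window that begins 250 bases before the first base of the gene are shown for the 8 snRNA genes with a Pol II S2P peak whose window holds the octamer, because the octamer lay at nearly the same place in all of them. Gm24265, a U4 gene whose window lacks it, and Snord118, the gene of the C/D box RNA U8, follow. Letters were read from GRCm38, and capitals mark ATGCAAAT or, on the other strand, ATTTGCAT.
Rnu2-10 (U2, chr11:101657988-101658047, plus strand): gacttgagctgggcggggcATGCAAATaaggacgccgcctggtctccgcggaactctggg
Gm22973 (U2, chr12:59040085-59040144, plus strand): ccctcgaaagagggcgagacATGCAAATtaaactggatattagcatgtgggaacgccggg
Gm23444 (U2, chr11:83271248-83271307, plus strand): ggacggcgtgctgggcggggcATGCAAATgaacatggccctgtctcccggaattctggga
Gm24497 (U2, chr1:72243963-72244022, plus strand): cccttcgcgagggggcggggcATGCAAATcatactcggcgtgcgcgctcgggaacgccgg
Gm25939 (U2, chr1:72254758-72254817, plus strand): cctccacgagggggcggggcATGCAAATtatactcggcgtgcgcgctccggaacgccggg
Gm24407 (U4, chr5:115490004-115490063, plus strand): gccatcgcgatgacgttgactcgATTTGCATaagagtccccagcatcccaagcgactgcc
Gm24019 (U6, chr10:79908945-79909004, plus strand): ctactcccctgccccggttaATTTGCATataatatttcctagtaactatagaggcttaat
Gm24859 (U6, chr12:52603538-52603597, plus strand): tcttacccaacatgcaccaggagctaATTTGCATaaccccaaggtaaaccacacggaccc
Gm24265 (U4, chr5:115489209-115489268, plus strand): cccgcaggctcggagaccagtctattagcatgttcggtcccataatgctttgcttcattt
Snord118 (U8 snoRNA, chr11:69073177-69073236, plus strand): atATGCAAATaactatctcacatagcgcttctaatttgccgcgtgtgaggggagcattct

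In the 5 U2 genes the octamer began 229 to 231 bases before the gene's first base, and in the U4 gene Gm24407 and the U6 genes Gm24019 and Gm24859 it began 227, 230 and 224 bases before it. All 5 U2 copies carried it on the strand of the gene, whereas the U4 and U6 copies carried it on the other strand. In the 300 bases from 250 before to 50 after the start, 47.1% of the 17 snRNA genes listed with a Pol II S2P peak had an octamer on either strand. The share was 4.26% over all 1292 annotated autosomal snRNA genes, 3.03% of the 1253 under no Pol II S2P peak and 1.75% of 27025 promoters of the RefSeq table, 1 per gene. Of the 42 snRNA genes listed with an H4K20me1 peak, 9.52% had one. Read the other way, 17 of the 55 snRNA genes with an octamer lay under a Pol II S2P peak (30.9%), as did 22 of the 1237 without (1.78%). Among the 47 octamer genes not listed with a peak, 8 had the octamer between 224 and 231 bases before the start and 2 of these lay under a peak, against 7 of the 39 with it elsewhere. A match to these letters is a description and was not tested for binding. No other motif is reported.

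Sequences of the snRNAs themselves are nearly alike within a family, which bears on the values because the authors kept only unique alignments. The U4 pair on chromosome 5 is shown in full from GRCm38, with the bases at which the copies differ in capitals.
Gm24265 (U4, chr5:115489459-115489599, plus strand): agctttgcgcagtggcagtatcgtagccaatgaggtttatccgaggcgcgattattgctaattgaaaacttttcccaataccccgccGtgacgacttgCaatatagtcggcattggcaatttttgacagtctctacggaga
Gm24407 (U4, chr5:115490254-115490394, plus strand): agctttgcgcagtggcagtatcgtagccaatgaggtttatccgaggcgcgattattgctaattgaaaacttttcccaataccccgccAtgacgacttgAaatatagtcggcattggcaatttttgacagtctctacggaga

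The U4 genes differed at 2 of 141 bases. Among the 5 U2 genes with a Pol II S2P peak, pairs differed at 1 to 10 of 191 bases, with Gm22973 the farthest from the others. Of the 17 snRNA genes listed with a Pol II S2P peak, 29.4% had at least 1 identical annotated copy on the autosomes, X or Y. The share was 7.20% of all 1292 autosomal snRNA genes. The U6 gene Gm24753 had the most, 42. Its score was the highest among snRNA genes, over a peak of 5574 bases of which 1.26% lay in the gene.

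Mature miRNAs are shown for 7 of the miRNA genes named below, 5 chosen for a high level or a large or small change and the muscle miRNAs miR-206 and miR-133b, with their seed, bases 2 to 8, in capitals and the letters from RefSeq on GRCm38.p6. Of the 34 miRNA genes listed with a peak of either antibody, 12 had an entry in that table.
mmu-miR-29a-3p (chr6:31062673-31062694, minus strand): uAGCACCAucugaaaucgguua
mmu-miR-210-3p (chr7:141221407-141221428, minus strand): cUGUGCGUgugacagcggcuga
mmu-miR-193a-3p (chr11:79712009-79712030, plus strand): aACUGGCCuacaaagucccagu
mmu-miR-7671-3p (chr11:53763597-53763618, minus strand): aAGCGGGCaggcggagaaccac
mmu-miR-7688-3p (chr10:93433142-93433162, plus strand): uCUGGCUUaugccuagcuuuc
mmu-miR-206-3p (chr1:20679055-20679076, plus strand): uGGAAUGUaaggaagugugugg
mmu-miR-133b-3p (chr1:20682834-20682855, plus strand): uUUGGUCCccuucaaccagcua

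No pair of these 7 arms shared a seed. The miR-206 and miR-133b genes are muscle miRNA genes and stood under a peak listed with another gene, as described below.

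Most small RNA genes with signal were not among the listed genes, since they lay under peaks listed with a longer gene. Of 5683 small RNA genes annotated on autosomes, 2030 (35.7%) shared at least 1 base with an H4K20me1 peak and 303 (5.33%) with a Pol II S2P peak. H4K20me1 peaks covered 24.7% of autosomal bases and Pol II S2P peaks 1.04%. By type the share under H4K20me1 was highest for scaRNA genes, at 58.7% of 46, followed by miRNA genes at 44.4% of 2054, and lay between 28.8% and 36.8% for snRNA, snoRNA, rRNA and misc_RNA genes. The 1 annotated scRNA gene lay under no peak of either antibody. Under Pol II S2P it was highest for snoRNA genes, at 7.77% of 1442, and miRNA genes, at 6.13%, and was 1.25% of 321 rRNA genes. Inside protein-coding genes 54.5% of small RNA genes lay under an H4K20me1 peak, and outside them 19.1% did. For Pol II S2P the shares were 6.82% and 4.02%. Of the 1891 small RNA genes under an H4K20me1 peak that was listed with another gene, 1745 were under a peak of a protein-coding gene.

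**Figure D1:**
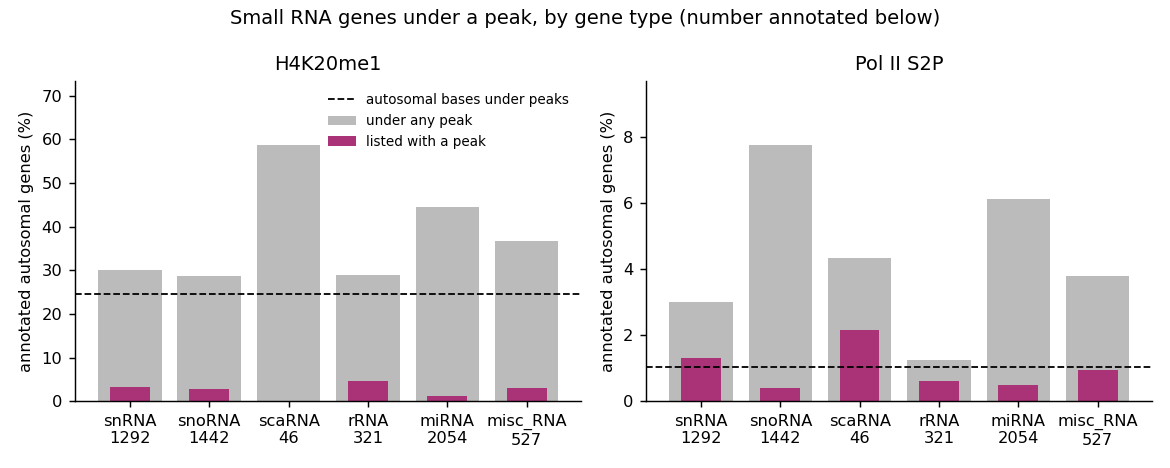
Share of annotated autosomal small RNA genes under a peak, in percent, for H4K20me1 (left) and Pol II S2P (right), by gene type with the number annotated. Grey bars count any peak sharing at least 1 base, purple bars the genes that the tables list with a peak, and the dashed line is the share of autosomal bases under peaks; the purple bars stay under 5% while grey bars for H4K20me1 reach 58.7%.

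Each peak is listed with at most 1 gene, so small RNA genes under a peak of a longer gene are missing from the listed ones. That no protein-coding gene shared a base with any of the 139 H4K20me1 or 41 Pol II S2P peaks is a property of this listing and not a finding. From the peak, the nearest start of a protein-coding gene was a median of 29205 bases away for H4K20me1 and 14566 for Pol II S2P. The RNA gene itself filled a median of 1.14% of its H4K20me1 peak, whose median length was 10200 bases, and 17.9% of its Pol II S2P peak, with a median of 466 bases. The H4K20me1 score of such a gene is thus the score of a broad region that contains it.

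The labels were checked against markers of cell types, and the scale of each library was compared. The scores over all peaks summed to between 15218720 and 35046570 for H4K20me1 and between 3257665 and 4885638 for Pol II S2P, and small RNA genes held 0.260% to 0.272% and 0.154% to 0.192% of the autosomal sum. Of 10 markers of satellite cells and myoblasts 8 were listed with a Pol II S2P peak, Pax7, Myod1 and Des among them, with summed scores of 7603 and 8602 in Ctrl against 9483 and 6502 in sKO. Of 4 markers each, 1 fibro-adipogenic (Col15a1), 1 endothelial (Pecam1), 2 immune (Cd68 and Csf1r) and 1 mature fibre gene (Ckm) were listed, and no tested marker was called different in Pol II S2P by limma. In H4K20me1 the markers of other cells rose with the rest, with 10 of 10 listed ones called higher, and their part in the results was not tested. The deletion is not checked by the score of Kmt5b, since a peak over the whole gene need not fall when some exons are lost. In H4K20me1 Kmt5b had 1332 and 1740 in Ctrl against 1934 and 2196 in sKO and was not called.

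The Pol II S2P peaks listed with snRNA genes lay mostly past the gene. Because only unique alignments were kept, reads inside genes with near-identical copies may be missing. The effect of this on where peaks begin and end was not tested. The centre of the peak was past the last base of the gene for 12 of the 17 snRNA genes, before the first base for 4 and within the gene for 1, and 11 peaks began at or after the first base. At the 5 U2 genes, the U2 RNA being the branch point binding RNA of the spliceosome, the peaks ran 328 to 496 bases past the end. Only the U2 peak of Gm25939 began upstream of its gene, by 205 bases. The U6 gene Gm24753 on chromosome 15 was listed with a peak of 5574 bases, which reached 5504 bases past an RNA gene of 107 bases. Both U4 peaks and both U5 peaks began inside the gene and ran 131 to 650 bases past it. The octamer stood outside all of these peaks, upstream.

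**Figure D2:**
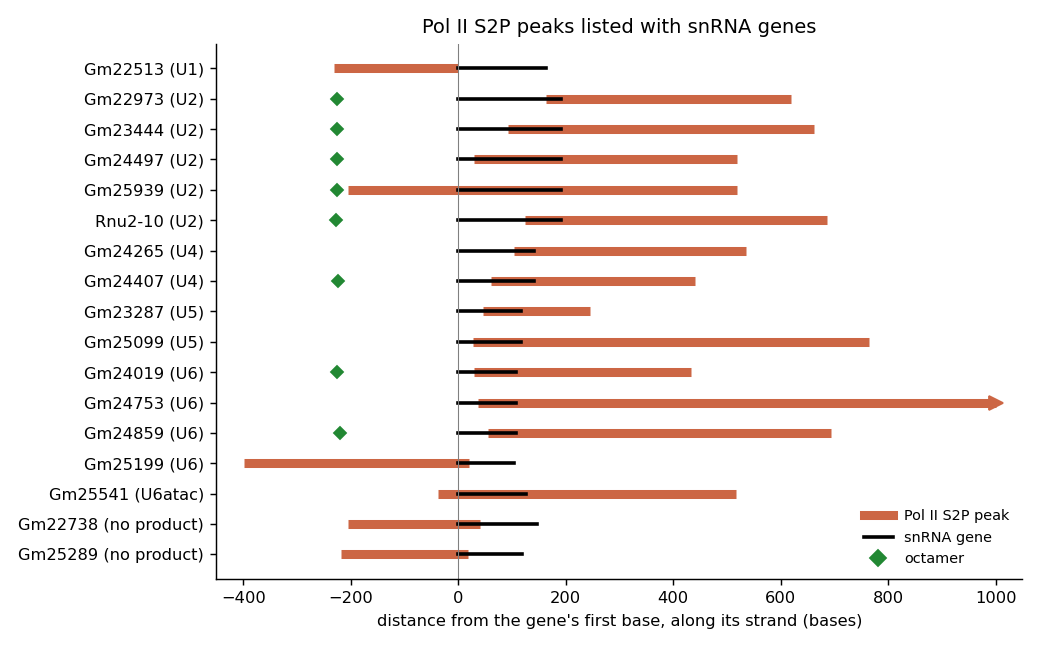
Position of the Pol II S2P peak (orange) at the 17 listed snRNA genes (black), along the strand of the gene, in bases from its first base, with the octamer as a green diamond. In 11 genes the peak begins at or after the first base and runs past the end, the 8 octamers lie 224 to 231 bases upstream, and the peak of Gm24753 runs on to the right of the axis for 5574 bases in all. Reads that fit several copies were dropped, and the effect on these positions was not tested.

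Per kb of peak, snRNA genes had a median Pol II S2P score of 177 in Ctrl and 155 in sKO, averaged over libraries. Over all autosomal peaks it was 110 and 129. By library the snRNA medians were 164 and 188 in Ctrl against 184 and 130 in sKO. Those of all autosomal peaks were 94.2 and 129 in Ctrl against 152 and 106 in sKO. The genotypes overlapped in both. Among small RNA genes listed with a peak, the rRNA gene CT010467.1 at chr17:39846353-39848827 had the highest level, a mean of 3557 per kb over the 4 libraries. This locus is overlapped by AY036118 and Gm42418, and its scores were 2334 and 1837 in Ctrl against 2075 and 1735 in sKO, and the genotypes overlapped. The IgG libraries were not analysed, so how much of this level is background was not tested. Next among these listed genes were Mir210 at 259 per kb, the U2 genes Gm23444 and Rnu2-10 at 242 and 229, and Rn7s1 at 232. Because reads that fit several copies were dropped, levels are not comparable between a gene with identical copies, such as Rn7s1, and one without. The effect of this on the values was not tested. Gm24753 also has identical copies, but only 1.26% of its peak lies in the gene, so its score is mostly that of sequence past it.

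The comparison of genotypes asked whether elongating Pol II at these genes differed when Kmt5b was lost. Of the 41 genes, 24 had a mean score over 50 and were tested: 10 snRNA, 3 snoRNA, 1 scaRNA, 2 rRNA, 6 miRNA and 2 misc_RNA genes. A call by limma needed an adjusted p (Benjamini-Hochberg) below 0.1 together with a log2 fold change above 0.5 or below -0.5. None of the 24 was called higher or lower in sKO, and the background over all 8531 genes was likewise 0% higher and 0% lower. The study, by contrast, reported increased Pol II S2P at many genes, using DESeq2 on spike-in normalised coverage of genes rather than of listed peaks. The test and the unit differ, so the absence of calls here does not show that Pol II S2P was unchanged. Before adjustment, 0 of 24 small RNA genes and 100 of 8531 genes had p under 0.05. All 24 adjusted p-values were 1. With equal library totals or quantile normalisation the count stayed at 0, where 1.27% and 1.31% of all genes were called higher and 0.856% and 0.34% lower. A lower score can stand for fewer cells with signal or less signal per cell, which cannot be told apart in these pooled cells. The median log2 fold change was 0.03 over the 24 genes and 0.09 over all genes, with a range of -0.43 to 0.66.

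The U2 genes were tested in full. Rnu2-10 at chr11:101658238-101658428 had 129 and 150 in Ctrl against 143 and 94 in sKO. Gm23444 on the same chromosome had 157 and 160 in Ctrl against 112 and 123 in sKO, so that both sKO libraries lay below both Ctrl libraries. Its log2 fold change was -0.43 (SE 0.41, adjusted p = 1 by limma), the lowest of the 24. Gm25939, which lies within the lncRNA gene D230017M19Rik on chromosome 1, had 137 and 136 in Ctrl against 182 and 100 in sKO, with the sKO pair on either side of Ctrl. The other U2 gene in that lncRNA, Gm24497, had 83 and 118 in Ctrl against 96 and 65 in sKO, and Gm22973 had 72 and 55 in Ctrl against 84 and 67 in sKO. In both the groups overlapped. Over the 5 U2 genes the log2 fold change ran from -0.43 to 0.25 with a median of -0.26.

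For U5, an RNA that holds the exons during splicing, Gm25099 had 137 and 147 in Ctrl against 133 and 96 in sKO, both sKO libraries below Ctrl (log2 fold change -0.33, SE 0.41, adjusted p = 1 by limma). Its neighbour Gm23287 was below the filter with 33 and 24 in Ctrl against 23 and 11 in sKO. For U4, which pairs with U6 before splicing, Gm24265 had 80 and 101 in Ctrl against 93 and 89 in sKO, and the second copy, Gm24407, had 49 and 43 in Ctrl against 65 and 43 in sKO. Neither U4 gene separated the genotypes. Of the U6 genes, Gm24753 had 1067 and 1339 in Ctrl against 1638 and 999 in sKO, and Gm24859 had 131 and 95 in Ctrl against 102 and 77 in sKO. The U6atac gene Gm25541, of the minor spliceosome, had 78 and 118 in Ctrl against 116 and 88 in sKO. Groups overlapped at all 3. The single U1 gene listed, Gm22513, had 35 and 48 in Ctrl against 37 and 26 in sKO and was below the filter. The median log2 fold change of the 10 snRNA genes tested was -0.14, and -0.28 with equal totals.

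Named spliceosomal genes under a peak listed with another gene gave more values. Of 16 gene names of spliceosomal and related RNAs annotated on autosomes, 10 lay under a Pol II S2P peak and 2 under an H4K20me1 peak. Rnu12, the U12 RNA of the minor spliceosome, lay under a peak listed with Poldip3 with 306 and 438 in Ctrl against 522 and 350 in sKO. Rnu11, its U11 partner, lay under a peak listed with the lncRNA gene Gm28872 with 125 and 107 in Ctrl against 144 and 79 in sKO. Rnu7, the U7 RNA that processes histone mRNA 3′ ends, had 535 and 709 in Ctrl against 831 and 572 in sKO. At each of these the sKO libraries lay on both sides of, or overlapped with, the Ctrl pair. The U1 gene Rnu1a1 lay under a peak listed with Tex14 and had 182 and 196 in Ctrl against 209 and 129 in sKO. The U5 gene Rnu5g had 69 and 54 in Ctrl against 42 and 43 in sKO, the only one of these in which both sKO libraries were below both Ctrl libraries, and it was not tested as a gene of its own. The U3 genes Rnu3a, Rnu3b1, Rnu3b3 and Rnu3b4, whose RNA acts in cutting the rRNA precursor, lay under peaks with 52 to 320 across libraries, and of these Rnu3b1, with 101 and 100 in Ctrl against 129 and 105 in sKO, had the sKO pair above the Ctrl pair.

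Of a list of 174 annotated names of Pol III and other housekeeping RNAs, which leaves out the U6 genes above, 2 lay under a Pol II S2P peak. Rn7sk, the 7SK RNA that holds the elongation kinase P-TEFb inactive, had 44 and 48 in Ctrl against 66 and 46 in sKO. The peak of Rn7s1, the signal recognition particle RNA, lay 268 bases from the ribosomal protein gene Rps29. It had 89 and 60 in Ctrl against 75 and 41 in sKO. Neither pair of groups stood apart. The rRNA gene Gm24931, with 60 and 61 in Ctrl against 71 and 54 in sKO, also overlapped between genotypes.

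Among snoRNA and scaRNA genes, those with their own peak were few. Snord118, the gene of U8 whose RNA is needed for the large ribosomal subunit, had 101 and 109 in Ctrl against 123 and 59 in sKO. Snord104 had 47 and 70 in Ctrl against 78 and 70 in sKO, and Scarna2 had 53 and 70 in Ctrl against 70 and 53 in sKO. These 3 overlapped between genotypes. Gm23939, an snoRNA entry with no RefSeq product on chromosome 1, had 65 and 62 in Ctrl against 124 and 82 in sKO, both sKO libraries above both Ctrl libraries. Its log2 fold change of 0.66 (SE 0.45, adjusted p = 1 by limma) was the highest of the 24. The protein-coding gene nearest the Gm23939 peak, Snrpe, encodes a spliceosomal protein and is 2330 bases from that peak.

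Named snoRNA genes were also counted under peaks listed with another gene entry. Of 143 gene names that begin with Snord, Snora or Scarna, 52 (36.4%) lay under a Pol II S2P peak, whereas 4.17% of the 1318 other snoRNA and scaRNA names did. Under H4K20me1 the shares were 46.9% and 27.7%. Such Pol II S2P peaks numbered 42, of which 32 were listed with protein-coding genes, 9 with lncRNA genes and 1 with a second entry of Snora43, and they held 50 of these snoRNA entries. The peak at Rpl3 with Snord43 had 204 and 215 in Ctrl against 176 and 176 in sKO, and the peak at Nop56 with Snord110 had 68 and 68 in Ctrl against 63 and 60 in sKO. Both sKO libraries were below both Ctrl libraries at 5 of the 42 peaks, including these, and above at 2. Another, longer peak at Rpl3, with Snord83b, had 2605 and 2884 in Ctrl against 3422 and 2125 in sKO. Over all genes tested the shares were 4.52% below and 9.41% above. Those shares are of genes with summed scores and a mean over 50, whereas the 42 are single peaks with no filter on the score.

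Among miRNA genes, Mir210, which is induced by low oxygen, lay under a peak of 1042 bases on chromosome 7 with 220 and 278 in Ctrl against 359 and 224 in sKO. Mir29a on chromosome 6, whose miRNA represses collagen mRNAs, had 150 and 160 in Ctrl against 242 and 154 in sKO, and its peak began within the miRNA gene and ran 801 bases past its end. Both overlapped between genotypes. Mir6417 had 109 and 155 in Ctrl against 249 and 168 in sKO, and Gm24561 had 183 and 279 in Ctrl against 388 and 292 in sKO. In these the sKO pair lay above the Ctrl pair, at log2 fold changes of 0.65 (SE 0.41) and 0.57 (SE 0.41), each with an adjusted p of 1 by limma. Mir5626 had 93 and 157 in Ctrl against 215 and 100 in sKO. The peak of the miRNA entry Gm44403 lay 2000 bases from the myogenic gene Myf5. It had 96 and 69 in Ctrl against 87 and 47 in sKO. In all, the sKO pair lay above the Ctrl pair at 3 of the 24 genes (12.5%, against 9.41% of all genes) and below it at 2 (8.33%, against 4.52%). With equal totals these counts were 3 and 6, against 17.3% and 26.9% of all genes.

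**Figure D3:**
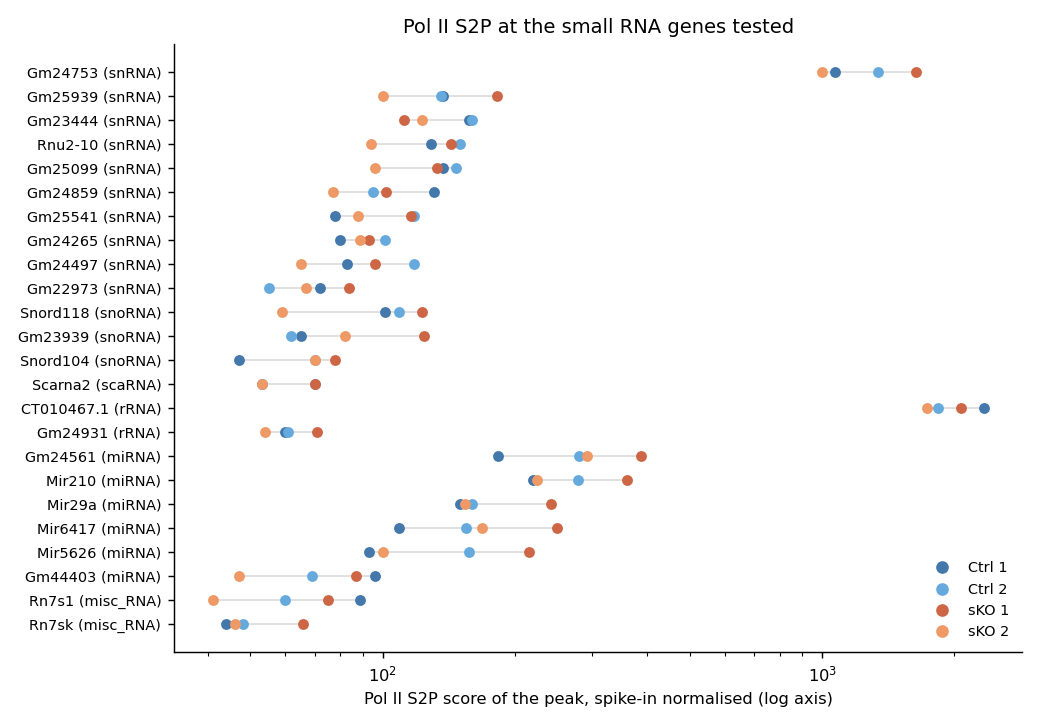
Pol II S2P score of the peak in each library for the 24 small RNA genes tested, on a log axis, with Ctrl libraries in blue and sKO libraries in orange. The colours interleave for 19 of the 24 genes, and the sKO points stand apart at 3 genes above and 2 genes below. The library sums over autosomal peaks interleave too, at 3224367 and 4201202 in Ctrl against 4836482 and 3401198 in sKO.

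Muscle miRNA genes were under peaks listed with other genes, which need not be their host transcripts. Mir206 and Mir133b on chromosome 1, whose miRNAs are found in muscle cells, lay together under a Pol II S2P peak of 8545 bases listed with the lncRNA gene Gm28653, which had 2217 and 2514 in Ctrl against 2910 and 1703 in sKO. The groups overlapped, and neither gene lay under an H4K20me1 peak. The other 9 of 11 muscle miRNA genes lay under an H4K20me1 peak and under no Pol II S2P peak. Mir1a-1 and Mir133a-2 shared an H4K20me1 peak of 339600 bases listed with Slco4a1, with 11493 and 16677 in Ctrl against 20689 and 22319 in sKO, and both sKO libraries were above both Ctrl libraries. Of 31 miRNA genes with a role in satellite cells or the cell cycle, 20 lay under an H4K20me1 peak and 6 under a Pol II S2P peak. Mir21a lay under the Vmp1 peak of Pol II S2P, with 2496 and 2871 in Ctrl against 3537 and 2442 in sKO.

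In H4K20me1 the small RNA genes rose together with nearly all other genes. All 139 had a mean score over 50 and were tested. By limma, with the same limits, 130 were called higher in sKO and 0 lower, where 92.3% of all 13750 genes were called higher and 0% lower. With a similar share over all genes, the count is not a result about the small RNA genes. Without sKO replicate 2 it was 73, where 5249 of all 13750 genes were called. Before adjustment, 128 had p under 0.05 by limma, as did 12421 of all 13750 genes. The sKO pair lay above the Ctrl pair in 133 of the 139 and below it in 0, against 96.5% and 0.0364% of all genes. The calls by type were 41 of 42 snRNA, 36 of 41 snoRNA, 15 of 15 rRNA, 23 of 25 miRNA and 15 of 16 misc_RNA genes. The median log2 fold change was 1.18 for snRNA, 1.09 for snoRNA, 1.38 for rRNA, 1.23 for miRNA and 1.13 for misc_RNA genes, and 1.11 over all genes.

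The counts of calls depended on the scale of the libraries. Scaling to equal totals multiplies each library by its own factor, so it moves nearly all genes alike. The gap between the median of the small RNA genes and that of all genes therefore could not change much by it. With each library scaled to the same total, 33 were called higher and 8 lower, against 20.8% and 5.69% of all genes, with a median log2 fold change of 0.20 against 0.13. On that scale the sKO pair lay above the Ctrl pair in 63 and below it in 27, against 49.3% and 27.3% of all genes. After quantile normalisation 6 were called higher and 22 lower, against 10.3% and 11.1%, with a median of -0.13 against 0.00.

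**Figure D4:**
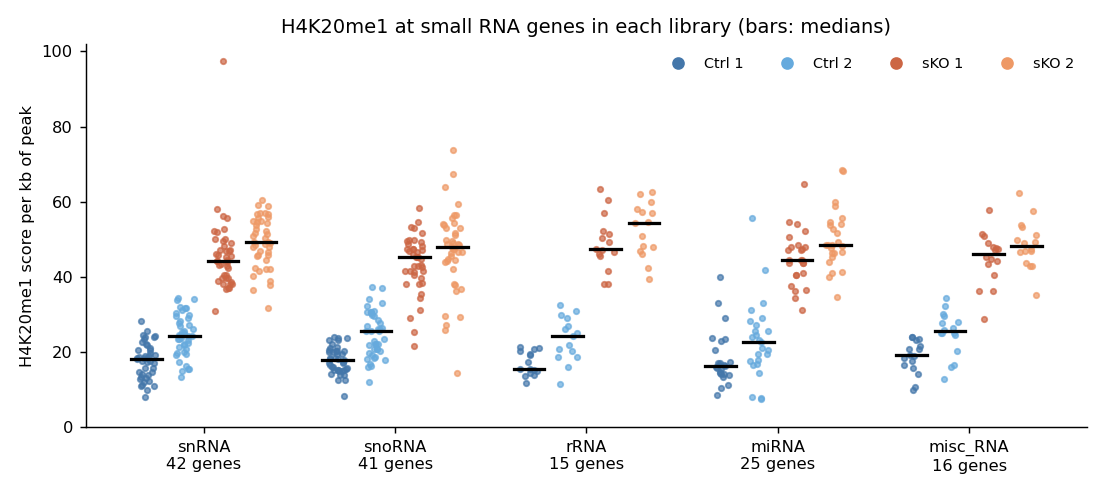
H4K20me1 score per kb of peak in each library for the small RNA genes of each type, 1 point per gene, with the median as a bar. The sKO medians stand above both Ctrl medians in all 5 types, and the points of the Ctrl libraries lie lowest.

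Per kb of peak the 139 genes had median scores of 17.5 and 24.5 in Ctrl against 45.4 and 48.8 in sKO. The medians of all genes tested were 19.7 and 26.8 in Ctrl against 48.3 and 52.5 in sKO. Levels were more alike between genes in sKO than in Ctrl, since the 90th percentile was 1.90 and 1.97 times the 10th in the Ctrl libraries and 1.44 and 1.52 times in the sKO libraries. Over all genes tested these ratios were 2.25 and 2.33 in Ctrl against 1.39 and 1.41 in sKO.

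Among spliceosomal snRNA genes, the U1 gene Gm22656 had the highest level, 51.9 per kb over a peak of 1200 bases, from scores of 34 and 30 in Ctrl against 117 and 68 in sKO. Its log2 fold change was 1.45 (SE 0.58, adjusted p = 0.0153 by limma). The U1 gene Gm24830, within a peak of 19800 bases on chromosome 3, had 488 and 676 in Ctrl against 984 and 1107 in sKO, which gave 0.86 as log2 fold change and -0.12 at equal totals. All 5 U1, 3 U2, 1 U4, 1 U5 and 16 U6 genes listed were called higher on the deposited scale, with medians of 1.42, 1.33, 0.97, 1.85 and 1.11. Of the U2 genes, Gm25939 had 53 and 77 in Ctrl against 188 and 140 in sKO (log2 fold change 1.33, SE 0.43, adjusted p = 0.00267 by limma). Gm23472, a U2 gene in the same stretch of chromosome 1 with an octamer 230 bases upstream but no Pol II S2P peak, had 67 and 74 in Ctrl against 279 and 219 in sKO. In the U2 genes the sKO libraries stood clear of Ctrl. The U5 gene Gm23287 had 52 and 69 in Ctrl against 217 and 221 in sKO and, like Gm23472, was also called higher at equal totals. The snRNA entry Gm24621, with no RefSeq product, had 52 and 86 in Ctrl against 320 and 334 in sKO and was called higher at equal totals too, by 1.30.

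The rRNA genes listed with H4K20me1 were 7 named n-R5s, entries of the 5S rRNA class, and 8 others, and all 15 were called higher on the deposited scale. The 7 n-R5s genes had a median log2 fold change of 1.38 and a range of 0.99 to 1.66. n-R5s43 had the highest level of these, 39.4 per kb, with 148 and 184 in Ctrl against 391 and 476 in sKO. n-R5s172 had 118 and 187 in Ctrl against 461 and 482 in sKO and was the 1 of the 7 also called higher at equal totals (log2 fold change 0.68, adjusted p = 0.00261 by limma). In both, each sKO library was above both Ctrl libraries. Gm24931 had 70 and 104 in Ctrl against 303 and 290 in sKO (log2 fold change 1.78, SE 0.36, adjusted p = 2.38e-06 by limma), while its Pol II S2P scores given above overlapped.

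Among snoRNA genes, entries of the SNORA17 family, whose RNA guides pseudouridylation, were the most numerous with 18 of 41. Of these 16 were called higher, with a median log2 fold change of 1.06. Gm22371 at chr1:57422244-57422373 had 86 and 125 in Ctrl against 607 and 767 in sKO, the largest rise among snoRNA genes (log2 fold change 2.71, SE 0.30, adjusted p = 1.96e-16 by limma). The groups lay far apart. Its family member Gm24665 had 239 and 279 in Ctrl against 356 and 315 in sKO and was not called, and at equal totals it was called lower by limma. Gm22315, a SNORA48 entry, had 84 and 171 in Ctrl against 130 and 163 in sKO. Gm25909, a SNORA40 entry, had 84 and 141 in Ctrl against 144 and 67 in sKO, and was the 1 gene of the 139 with a negative log2 fold change, -0.15 (SE 0.43, adjusted p = 0.736 by limma). Its sKO libraries differed by more than its Ctrl libraries did.

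Among miRNA genes, Mir7671 near Irf1 had 67 and 49 in Ctrl against 349 and 439 in sKO, the largest rise of all 139 genes (log2 fold change 2.75, SE 0.36, adjusted p = 3.50e-12 by limma). Mir7688 had 36 and 34 in Ctrl against 170 and 286 in sKO (log2 fold change 2.62), and Mir193a had 50 and 34 in Ctrl against 196 and 210 in sKO (log2 fold change 2.27). In all 3 the sKO libraries were several times the Ctrl libraries, and all 3 were also called higher at equal totals. Mir29a had 1025 and 1302 in Ctrl against 1274 and 1276 in sKO over a peak of 31000 bases (log2 fold change 0.14, SE 0.27, adjusted p = 0.604 by limma). The miRNA entry Gm23681, with 2815 and 3927 in Ctrl against 3418 and 3708 in sKO, had 0.10 (SE 0.28, adjusted p = 0.732 by limma). Both genes overlapped between genotypes, and at equal totals both were called lower, by 0.84 and 0.88 on the log2 scale. Per kb, Mir29a was at 33.1 and 42.0 in Ctrl and Mir7671 at 10.5 and 7.66, while in sKO they were at 41.1 and 41.2 and at 54.5 and 68.6. The let-7 genes Mirlet7a-1, Mirlet7d and Mirlet7f-1 shared a peak listed with the lncRNA gene 6720427I07Rik with 952 and 1226 in Ctrl against 919 and 1076 in sKO, and Mir34b and Mir34c shared one listed with Btg4 with 70 and 65 in Ctrl against 233 and 395 in sKO. The groups overlapped at let-7 and stood apart at Mir34b and Mir34c.

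The misc_RNA genes with the highest level were Gm24444 at 40.2 per kb, with 1692 and 2263 in Ctrl against 3568 and 3775 in sKO, then Gm27601 and Gm26329. Gm27601 had 239 and 250 in Ctrl against 490 and 588 in sKO. Gm26329 had 264 and 392 in Ctrl against 504 and 558 in sKO, and its log2 fold change of 0.72 was -0.26 at equal totals. On the deposited scale the sKO libraries lay above Ctrl at all 3.

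**Figure D5:**
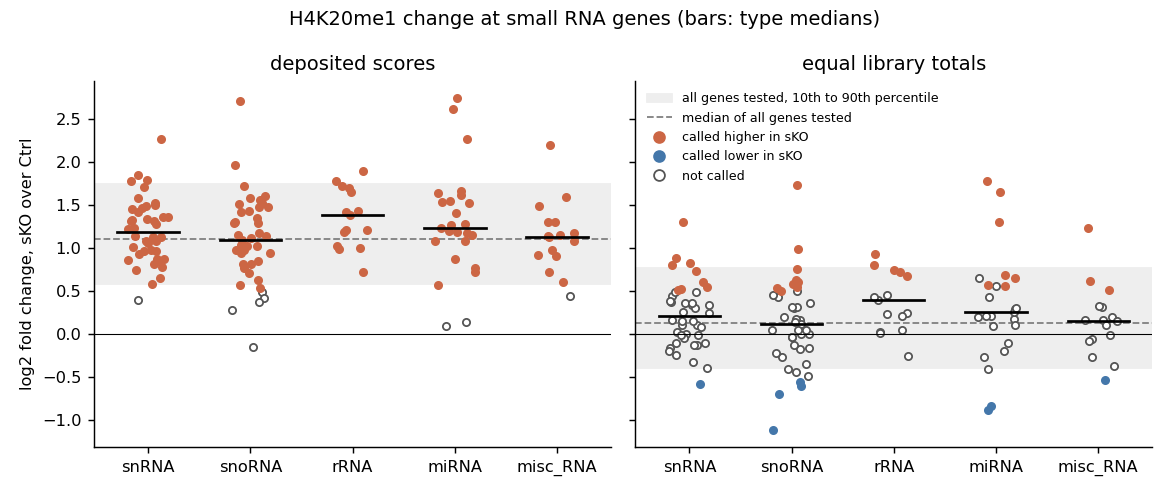
log2 fold change of H4K20me1, sKO over Ctrl, for the 139 small RNA genes by type, on the deposited scale (left) and with equal library totals (right). Filled points are called by limma, the bars are type medians and the grey band spans the 10th to the 90th percentile of all 13750 genes tested; on the left 130 genes are called higher, on the right 33 are called higher and 8 lower.

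The 2 signals were set side by side at the same places. Of the 41 Pol II S2P peaks listed with small RNA genes, 19 (46.3%) lay in an H4K20me1 peak, and of the 17 at snRNA genes 6 did (35.3%). Over all autosomal Pol II S2P peaks the share was 64.4%, over those listed with protein-coding genes 71.4% and over those listed with no gene 50.4%. Over the 19, the Pol II S2P and H4K20me1 scores per kb gave a Spearman's rho of -0.000878 across genes, a description, since points share libraries. The study likewise reported no positive correlation of the 2 signals for rRNA, snRNA, snoRNA and scaRNA genes. It measured gene bodies, whereas the 19 are peaks and include miRNA and misc_RNA genes. The largest H4K20me1 ratio under such a peak was at Gm44403 near Myf5, with 56 and 67 in Ctrl against 284 and 442 in sKO for the H4K20me1 peak listed with Myf5, where the Pol II S2P scores given above did not rise. At Scarna2 the H4K20me1 peak had 419 and 522 in Ctrl against 1368 and 1281 in sKO. In the 3 genes tested for both antibodies, Mir29a, Gm24931 and Gm25939, log2 fold changes were 0.14, 1.78 and 1.33 for H4K20me1 and 0.32, 0.03 and -0.02 for Pol II S2P.

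Genes that make or process small RNAs were counted in the same fits. For H4K20me1, 18 of 19 tested genes of Pol III and SNAPc were called higher, as were 16 of 16 of Integrator and the little elongation complex, 5 of 7 of the snoRNA and telomerase particles, 8 of 10 of miRNA processing and 2 of 2 of the 7SK and Y particles, where 92.3% of all genes were. None was called lower by limma on that scale. For Pol II S2P, 0 of 13, 12, 6, 3 and 3 tested genes of these lists were called in either direction by limma, and 0 had an unadjusted p under 0.05. At equal totals the H4K20me1 calls of the lists were 2, 1, 0, 0 and 1 higher and 1, 0, 2, 2 and 0 lower, where 20.8% of all genes were called higher and 5.69% lower.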

How the data were processed

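CUT&RUN libraries of H4K20me1 and Pol II S2P were analysed, 2 per genotype and antibody, 8 of 10 samples. The other 2 samples, IgG, were not analysed here. Per the submitters' processing notes, the tools were FastQC 0.11.8, Trimmomatic 0.39, SICER 0.0.41, MACS2 2.1.1, Picard 2.21.7 and STAR 2.7.3a and the builds mm10, GRCm38 and BDGP6. The authors kept unique alignments, removed duplicates and normalised coverage by a spike-in of S2 cell DNA. The deposited score is a whole number per union peak and library and is not divided by peak length, and the deposited fraction is the part of a peak in its listed gene. Depth in reads was not taken from scores, so no counting interval is given.

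Scores were summed per gene identifier. Autosomal genes with a mean over 50 were tested with limma 3.58.1 in R 4.3.3 (mean-variance trend) on log2(score + 1), a scale that understates changes of low genes. Calls needed, as in the study, an adjusted p (Benjamini-Hochberg over all genes) below 0.1 with a log2 fold change outside -0.5 to 0.5. The study used DESeq2, which was not run on normalised coverage. The procedure was tried on simulated scores whose libraries had the same scale. Real library totals differed, so that run does not show how many changes would be found in these data. Positions of all 139 and 41 listed genes matched GENCODE M21, and RefSeq gave a product for 63 and 26. Overlap needed at least 1 shared base.

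Genes were named by rule: the 3 highest per kb of each type, the 5 largest and 5 smallest fold changes, those tested for both antibodies, and listed members of lists of spliceosomal, Pol III, muscle miRNA, satellite cell miRNA and snoRNA genes. Other genes named in the text, such as those of the U1 to U6 families and those beside a peak of another gene, and the sequences shown, were chosen after their values were seen. The members and lists were chosen with earlier results of these data known. Alternatives changed the scaling, the pseudocount (10), the filter (none or 100), the trend, the block and the peaks counted, and left out each library. A few items are not reported here.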

Additional observations from a re-analysis of the deposited data

Results flagged for a closer look

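The comparisons above leave out chromosome X, as the study did. There, 33 small RNA genes were listed with an H4K20me1 peak, 12 of them snRNA, 9 snoRNA, 5 rRNA, 4 misc_RNA and 3 miRNA genes, and this signal lies outside every comparison of the report. Their scores summed to 17815 and 24425 in Ctrl against 27010 and 30077 in sKO, and the medians per kb of peak were 23.6 and 33.1 in Ctrl against 36.7 and 41.2 in sKO. The sKO pair lay above the Ctrl pair at 22 of the 33 genes and below it at 1. Over all 3917 H4K20me1 peaks of X the medians per kb were 24.1 and 35.2 in Ctrl against 36.6 and 40.9 in sKO, close to those of the 33 genes. No test was run on them, and no small RNA gene of X was listed with a Pol II S2P peak.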

How the results depend on the processing

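The H4K20me1 results turned on scaling. Of the 139 genes, 130 were called higher; this became 33 with equal totals and 6 after quantile normalisation, while the count called lower went from 0 to 8 and to 22. The median log2 fold change of 1.18 became 0.20 with equal totals and reversed to -0.13 after quantile normalisation. Genes named by rule and called higher that changed sign with equal totals were Gm26329 (-0.26), Gm22927 (-0.032), Gm25148 (-0.16), Gm24444 (-0.075) and Gm24830 (-0.12), and those not called that did were Mir29a (-0.84), Gm23681 (-0.88), Gm24665 (-0.61) and Gm22315 (-0.70). After quantile normalisation the called ones were n-R5s176 (-0.38), n-R5s156 (-0.10), n-R5s157 (-0.077), Gm26329 (-0.54), Gm22656 (-0.24), Gm22927 (-0.32), Gm25148 (-0.39), Gm25621 (-0.20), Gm24444 (-0.016), Gm25939 (-0.16), Gm24830 (-0.30) and Gm27601 (-0.15), and the same 4 uncalled genes were at -0.93, -0.79, -0.93 and -1.18. The cause was not tested. Leaving out 1 library gave 73 to 133 higher and a median of 0.90 to 1.40, the 73 coming without sKO replicate 2, where 5249 of all 13750 genes were called. The lone library is assumed to vary like the others. For Pol II S2P the counts stayed at 0 by limma under all alternatives run, and the median of 0.03 ran from -0.23 without sKO replicate 1 to 0.25 without sKO replicate 2, and was -0.11 with equal totals and -0.08 after quantile normalisation. Counting any annotated gene under a peak gave 2030 in place of 139 and 303 in place of 41. Replicate numbers are shared by the genotypes, but deviations of same-numbered libraries correlated at only 0.0407 and -0.0428 across genes, so the numbers were treated as names. With the replicate block 130 genes were called higher in H4K20me1, of 12718 over all genes, and 0 in Pol II S2P. Pseudocount, filter and trend changed none of these counts by more than 1.5 times. The scale between genotypes rests on the authors' spike-in factors, which were not examined here.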
